A study of Homo sapiens with 12 samples.

Results

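QRICH1 knockout cells were compared with wild-type cells while both were under endoplasmic reticulum (ER) stress, to ask how loss of QRICH1 changes the set of transcripts present during that stress. The comparison uses 6 of the 12 RNA sequencing samples of the study: 3 QRICH1 KO and 3 WT samples given tunicamycin (Tm), chosen by their sample titles, and 11323 of the 20015 genes in the deposited count table had enough counts to be tested. All samples are HT29-Cas9, an established line of human colorectal adenocarcinoma cells with the Cas9 nuclease added. WT cells received a lentivirus with a non-targeting guide RNA and QRICH1 KO cells one with a guide against QRICH1, and the Tm samples were kept in 0.3 µg/ml Tm for 14 h. Another 3 WT and 3 QRICH1 KO samples received the solvent DMSO in place of Tm and serve here as the unstressed reference. The labels do not say whether the KO cells are a pool or 1 clone, nor whether the 3 samples of a genotype came from separate transductions, so differences between the lines that arose during their making cannot be told apart from the effect of the guide.

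Tunicamycin inhibits the enzyme that begins N-glycan synthesis, and secretory proteins made without their glycans misfold in the ER. The unfolded protein response then acts through 3 sensors. PERK phosphorylates the translation factor eIF2α and thereby favours translation of the transcription factor ATF4, which drives amino acid supply genes and DDIT3 (CHOP). IRE1 splices XBP1 mRNA, and ATF6 is cleaved to a transcription factor. The latter 2 arms induce ER chaperones, translocation and degradation machinery, in part through the ER stress response element, a promoter sequence. QRICH1 is a glutamine-rich nuclear protein with a caspase recruitment domain that has been described as a transcriptional regulator made under PERK signalling.

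Total counts were 12395549, 14250070 and 6856736 in the WT Tm samples and 13205487, 9063303 and 12334129 in the KO Tm samples, numbered 1 to 3 in this order throughout. Levels are given as CPM, the counts of a gene scaled to its library by TMM. A gene with no count could still have had a level of up to 3 counts, which is 0.238 to 0.456 CPM in these samples. This limit covers counting error only. KO Tm sample 3 had counts for 14813 genes and the other 5 Tm samples for 13124 to 13632, and the main counts were also made without KO samples 3 of both treatments. Along the first principal component of the 6 samples, which held 28.3% of the variance, the WT samples lay at 19.8, 10.1 and 24.4 and the KO samples at -24.7, -23.2 and -6.44. All 10 markers of colon epithelium in the fixed list passed the count filter, although CDX2 and CEACAM5 stayed at or below 1.67 CPM in every Tm sample. Of 26 markers of other cell types 21 were at or below 1 CPM in every Tm sample, and their summed level was almost entirely LYZ, which secretory epithelial cells also express.

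The guide's target was measured first. QRICH1 (ENSG00000198218.11, chr3:49029707-49094363, minus strand, hg38) stood at 30.8, 31 and 25.7 CPM in the WT Tm samples and at 26.8, 22.4 and 19.2 CPM in the KO Tm samples. The KO values reached lower, but 1 KO sample lay above the lowest WT sample. The log2 fold change was -0.36 (SE 0.164), and the edgeR test did not call it (adjusted p = 0.352). Small Cas9 insertions or deletions can end a protein and leave its transcript in place, so the mRNA level is no check of the labels.

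Under Tm 132 genes differed between the genotypes: 46 were higher in QRICH1 KO (0.406% of the genes tested) and 86 lower (0.76%). A gene is called here at an adjusted p under 0.05 in edgeR's quasi-likelihood test with Benjamini-Hochberg adjustment across the 11323 genes. Fold changes are QRICH1 KO over WT on the log2 scale with their standard error (SE). Most differences were moderate: 36 of the higher and 62 of the lower genes differed at least 1.5-fold, and 16 and 17 at least 2-fold. In all 132 genes the 3 KO samples lay outside the range of the 3 WT samples. Over all genes tested, the 3 KO samples lay above the 3 WT samples in 9.41% and below them in 9.06%, and the median log2 fold change was 0.0097. The log2 fold change was below 0 in 48.5% of all genes tested. At an unadjusted p under 0.05 there were 1513 genes (13.4%). Scaled by library totals alone the split was 66 higher and 57 lower, so that 53.7% of the calls were higher against 34.8% with TMM scaling, and the median of all genes was 0.07.

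**Figure D1:**
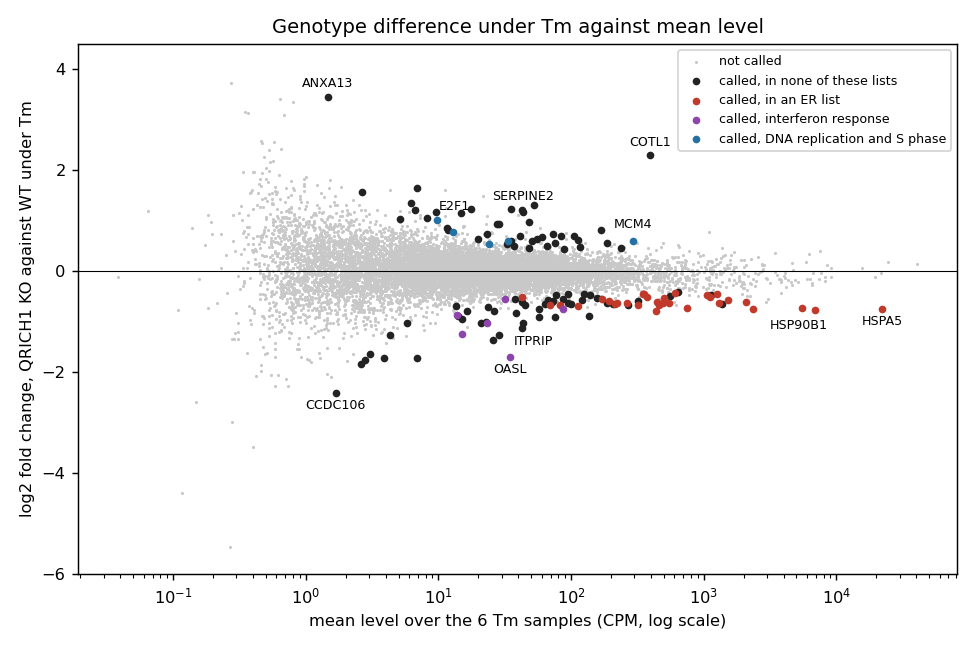
Log2 fold change of QRICH1 KO against WT under Tm (vertical axis) against the mean level over the 6 Tm samples in CPM (horizontal axis, log scale) for the 11323 genes tested, each dot 1 gene. Called genes are coloured by list: red dots of the ER lists lie below 0, with HSPA5 and HSP90B1 at the right, while the 5 called genes of DNA replication and S phase lie above 0.

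Each of the 6 Tm samples weighed on the number of calls. The number higher fell to 18, 21 and 28 without KO Tm sample 1, 2 or 3 and to 13, 19 and 29 without WT Tm sample 1, 2 or 3, and it was 29 without KO DMSO sample 2, which enters through the shared estimate of the spread. The number lower fell to 46, 35 and 38 without KO Tm sample 1, 2 or 3 and to 47, 42 and 49 without WT Tm sample 1, 2 or 3. Without KO samples 3 of both treatments it was 54 higher and 64 lower. The sign of all 132 differences was the same in each alternative that tested them. Of the 132 genes, 37 kept their call in each of the 12 fits that leave out 1 sample. The 27 lower ones among them were CCDC106, LAMB2, SDSL, SYTL1, ITPRIP, GLRX, PGM1, ETHE1, DBN1, NUCB2, HSP90B1, HSPA5, CETN2, AGR2, PDIA4, TRAM1, OS9, LCN2, KDELR1, HID1, HM13, SLC35B1, GOLGA5, SELENOS, ERP44, SERP1 and OSTC. The 10 higher ones were MCM4, GLUL, TNS4, PADI1, TUBA1A, CLDN2, SERPINE2, APOBEC3C, HPGD and APOBEC3G. Every other called gene lost its call without at least 1 of the 12 samples.

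The genes of the secretory pathway made up the largest block among the decreases. Across 6 lists of ER and early secretory genes, 31 of 198 members tested were lower in QRICH1 KO and none was higher. Their median log2 fold change was -0.29, beside 0.0097 for all genes. In 97 of the 198 the KO samples all lay below the WT samples and in 4 all above. Together these genes took 10.4, 9.98 and 10.1% of all counts in the WT Tm samples and 7.04, 7.54 and 7.33% in the KO Tm samples. In the DMSO samples their share was 2.66 ± 0.059% in WT and 2.66 ± 0.108% in QRICH1 KO (SD, n = 3). The count of 31 fell to 16, 15 and 15 without KO Tm sample 1, 2 or 3, to 20, 17 and 17 without WT Tm sample 1, 2 or 3 and to 23 without KO samples 3 of both treatments, and it was 57 by DESeq2. In bulk RNA, fewer cells expressing a gene and less of its RNA per cell cannot be told apart.

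Chaperones and disulfide isomerases, the folding enzymes of the ER lumen, had the most called members, with 11 of 34 lower (median -0.57), and 31 of the 34 lay below 0. HSPA5 encodes BiP, the ER member of the HSP70 family that also keeps the stress sensors inactive. It stood at 26394, 30882 and 26275 CPM in the WT Tm samples and at 16164, 17930 and 15296 CPM in the KO Tm samples. The highest KO sample was well below the lowest WT sample, and the mean was 1.69-fold lower (log2 -0.76, SE 0.124, adjusted p = 0.00484). HSP90B1, which encodes the HSP90 of the ER (GRP94), measured 8709.9, 8763 and 8677 CPM in WT and 4792, 5350.4 and 5166 CPM in QRICH1 KO (-0.77, SE 0.104, adjusted p = 0.00193). Its WT samples were nearly equal, and none of the KO samples came near them. Without tunicamycin the 2 genes did not separate the genotypes: HSPA5 averaged 1081 ± 116 CPM in WT and 1127 ± 65.8 CPM in QRICH1 KO, and HSP90B1 682 ± 45.4 and 704 ± 23 CPM (SD, n = 3).

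The disulfide isomerase gene PDIA4 was at 6519, 7733 and 6488 CPM in WT and at 4224, 4586 and 3667 CPM in QRICH1 KO (-0.73, SE 0.129, adjusted p = 0.00713). AGR2, a disulfide isomerase needed for mucin folding in goblet cells, was at 2903, 3095 and 2843 CPM against 1680.2, 1963 and 1622 CPM (-0.75, SE 0.13, adjusted p = 0.00681). Both separated the genotypes completely. ERP44, which retains client proteins through thiol bonds, had 270.1, 272 and 273 CPM in WT and 182, 178 and 168 CPM in QRICH1 KO (-0.63, SE 0.0989, adjusted p = 0.00484). SERP1, a small protein bound to the translocation channel, differed by -0.62 (SE 0.103) and the lectin chaperone gene CALR by -0.61 (SE 0.118). The stress-induced ER genes CRELD2 and SDF2L1 differed by -0.67 (SE 0.131, adjusted p = 0.0143) and -0.59 (SE 0.129, adjusted p = 0.0278). HYOU1, which exchanges the nucleotide on BiP, and MANF, a stress-induced secreted protein, complete the 11 and are named after their values were seen, with -0.78 and -0.67. Of these 11, HSPA5, HSP90B1, PDIA4, AGR2, ERP44 and SERP1 kept the call in each fit that left out 1 sample.

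**Figure D2:**
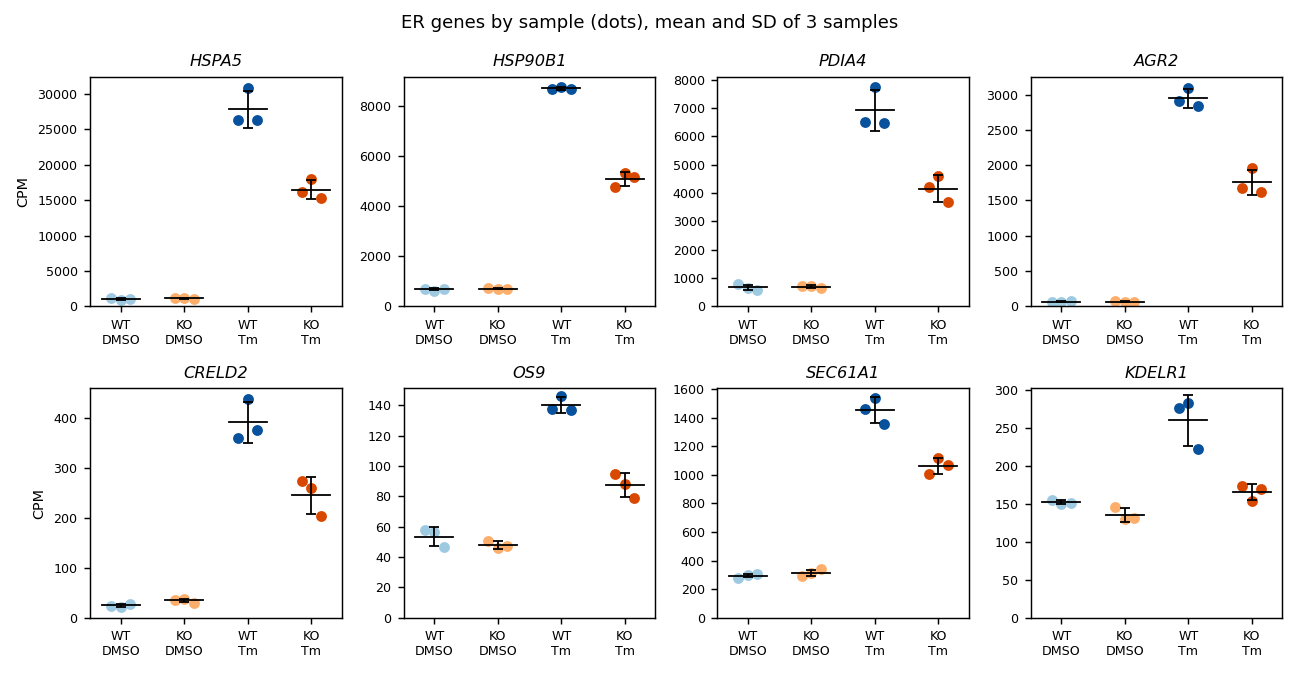
Levels in CPM (vertical axes, from 0) of 8 called ER genes in the 4 groups of 3 samples, each dot 1 sample, with the mean (long bar) and SD (error bar). In each panel the KO Tm samples lie below the WT Tm samples, for example at 15296 to 17930 CPM against 26275 to 30882 CPM for HSPA5, while in DMSO the genotypes overlap except for CRELD2, where KO lies above WT, and KDELR1, where KO lies below.

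The ER stress response element (ERSE), bound by NF-Y together with ATF6 or spliced XBP1, was written as CCAAT, then any 9 bases, then CCACG, and searched on both strands in the 250 bases before the RefSeq start (GRCh38.p14), which were at hand for 9263 of the 11323 genes. It was found in 5 of the 26 called-lower ER genes with a promoter (19.2%), against 15 of all 9263 (0.162%). The 26 are members of lists of ER genes, so this excess may come from the choice of lists and tells nothing about the call. How often uncalled members of these lists hold the element was not counted. The stretches that hold it are printed 5′ to 3′ on the strand of the gene, with the fixed letters of each match in capitals. An element read on the opposite strand starts with CGTGG and ends with ATTGG. They show that HSP90B1 holds the element at both ends of a longer stretch and each of the others holds it once.
HSPA5: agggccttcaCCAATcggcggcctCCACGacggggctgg
HSP90B1: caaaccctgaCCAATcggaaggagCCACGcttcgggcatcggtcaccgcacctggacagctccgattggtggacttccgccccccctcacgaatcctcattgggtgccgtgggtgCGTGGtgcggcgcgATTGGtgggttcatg
CALR: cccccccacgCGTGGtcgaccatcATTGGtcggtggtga
CRELD2: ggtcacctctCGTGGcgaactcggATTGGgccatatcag
SERP1: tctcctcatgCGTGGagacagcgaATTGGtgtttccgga
They lie at chr9:125241381-125241419 (minus strand, 76 to 38 bases before the start), chr12:103930206-103930349 (plus strand, 204 to 61 bases before), chr19:12938374-12938412 (plus strand, 235 to 197), chr22:49918544-49918582 (plus strand, 90 to 52) and chr3:150546700-150546738 (minus strand, 242 to 204).

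Taken by their promoter alone, the 15 tested genes with this exact element had a median log2 fold change of -0.49 under Tm and 0.06 under DMSO, beside 0.0079 and 0.0037 for all genes with a promoter. Of the 15, 5 were called lower and 13 lay below 0, beside 69 and 4515 of all 9263 genes with a promoter. Besides the 5 shown, 3 ER genes had values of similar size without being called: ERO1B, an oxidase of disulfide isomerases, with -0.61 (adjusted p = 0.304), FICD, which modifies BiP, with -0.58 (adjusted p = 0.0848) and the disulfide isomerase gene PDIA6 with -0.49 (adjusted p = 0.0784). CANX, the membrane-bound lectin chaperone, varied widely within both groups (2764, 1409.9 and 2119 CPM in WT and 974, 1557 and 2598 CPM in QRICH1 KO). XBP1 (0.10) and ZNF17 (0.24) were the 2 above 0. Whether a match is bound in these cells was not measured.

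The search covered 5 motifs in all, with the interferon element described further on. The sets below also come from gene lists, so their shares beside all promoters may reflect the lists. TGACGTGG, bound by spliced XBP1 or ATF6, was in 3 of the 26 called-lower ER genes (11.5%) and in 0.982% of all promoters. TGATGNAA, bound by ATF4 with C/EBP factors, was in 2 of the 26 (7.69%) and in 2.29% of all. TTTGGCGC, an E2F motif, was in none of the 26 and in 1.13% of all, and it was in 1 of the 4 called genes of DNA replication and S phase with a promoter, E2F1.

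Protein entry into the ER was the next group, with 5 of 30 translocation genes lower, none higher and a median of -0.33. TRAM1, which helps signal sequences enter the membrane, was at 998, 789 and 1006 CPM in WT and at 505, 596 and 592 CPM in QRICH1 KO (-0.72, SE 0.113, adjusted p = 0.00484). SSR1, a subunit of the translocon-associated protein complex, was at 627, 585 and 574 CPM against 384, 379.7 and 395 CPM (-0.63, SE 0.113, adjusted p = 0.00828). No sample of one genotype overlapped the other in either gene. The channel gene SEC61A1 differed by -0.45 (SE 0.101, adjusted p = 0.0365), and SRPRA and SRPRB, the 2 subunits of the signal recognition particle receptor, by -0.42 (SE 0.0985) and -0.46 (SE 0.105). TRAM1 alone kept its call in every fit without 1 sample. SSR1 lost it only without KO Tm sample 2, and the other 3 lost it without each of the 6 Tm samples. The count of 5 was 2 without KO samples 3 of both treatments.

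In N-linked glycosylation, the process that tunicamycin blocks, 2 of 40 genes were lower and none higher (median -0.19). These were GFPT1, the rate-limiting enzyme of the hexosamine pathway that makes the sugar donor, at 750.4, 576 and 659.8 CPM in WT and 367, 440.3 and 482 CPM in QRICH1 KO (-0.62, SE 0.13, adjusted p = 0.0234), and OSTC, a subunit of the oligosaccharyltransferase, at 534, 543 and 523 CPM and 341, 356 and 352 CPM (-0.61, SE 0.11, adjusted p = 0.00828). The OSTC samples were tight within each genotype and far apart between them. GFPT1 lost its call without KO Tm samples 1 or 2 and without WT Tm samples 1 or 3.

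ER-associated degradation, which returns misfolded proteins to the cytosol, had 4 of 33 members lower and none higher (median -0.26). Of these OS9 and ERLEC1 are lectins that select misfolded glycoproteins. OS9 was at 137, 146 and 137 CPM in WT and at 94.5, 88.4 and 78.8 CPM in QRICH1 KO (-0.68, SE 0.112, adjusted p = 0.00484), with no overlap. ERLEC1 differed by -0.54 (SE 0.112, adjusted p = 0.0213). SELENOS, a selenoprotein that recruits the p97 ATPase, was at 292, 338 and 334 CPM against 223, 205 and 192 CPM (-0.63, SE 0.103, adjusted p = 0.00484), again without overlap. HERPUD1, a scaffold of the degradation complex, measured 1701, 1940.2 and 1828 CPM in WT and 1254, 1324 and 1105 CPM in QRICH1 KO (-0.57, SE 0.107, adjusted p = 0.0118). HERPUD1 lost its call without KO Tm sample 3 or WT Tm sample 2, and ERLEC1 lost it without any of the KO Tm samples and without WT Tm sample 1 or 3.

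Vesicle traffic between ER and Golgi had 9 of 47 members lower and none higher (median -0.29). KDELR1 encodes a receptor that returns escaped ER chaperones such as BiP from the Golgi. It was at 276, 283 and 222 CPM in WT and at 173, 154 and 169 CPM in QRICH1 KO (-0.66, SE 0.11, adjusted p = 0.00499). The genotypes did not overlap, although WT sample 3 lay closer to the KO samples than the other two. Its paralogs KDELR2 and KDELR3, named after their values were seen, were called lower too, with -0.47 (SE 0.102, adjusted p = 0.0278) and -0.51 (SE 0.115, adjusted p = 0.0346). ARFGAP3, which acts on the COPI coat, differed by -0.68 (SE 0.129), the small GTPase gene ARF4 by -0.54 (SE 0.104), the cargo receptor gene TMED2 by -0.52 (SE 0.103) and SEC23B, of the COPII coat, by -0.50 (SE 0.0989). KDELR1 alone of the 9 kept its call in each fit without 1 sample, and the count was 2 without KO Tm sample 1, KO Tm sample 3 or WT Tm sample 3, 4 without KO Tm sample 2 or WT Tm sample 2 and 5 without WT Tm sample 1 or KO DMSO sample 2. It was 4 without KO samples 3 of both treatments.

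The sensors and transcription factors that run the response itself were not called. None of 16 transducers passed in edgeR (median -0.24), and 1 did without KO samples 3 of both treatments or without WT DMSO sample 1. The nearest were DNAJC3, an inhibitor of PERK, at 741, 736 and 673 CPM in WT and 399, 455 and 549 CPM in QRICH1 KO (-0.61, SE 0.163, adjusted p = 0.0793), and ATF6 at 89.7, 91.8 and 85.4 CPM and 61.9, 66.3 and 72.3 CPM (-0.41, SE 0.105, adjusted p = 0.0665). In both genes the KO samples all lay below the WT samples. ATF4 mRNA was at 620.1, 803 and 683 CPM and 641, 640.3 and 551 CPM, with overlapping samples (-0.20, SE 0.121, adjusted p = 0.505). XBP1 was at 84.5, 76.7 and 85.9 CPM and 91.1, 93.1 and 80 CPM (0.10, SE 0.15, adjusted p = 0.848), also with overlap. Gene counts do not separate spliced from unspliced XBP1 and do not show ATF6 cleavage or ATF4 protein. DNAJB9, a BiP co-chaperone induced by spliced XBP1, had -0.36 (adjusted p = 0.167) and was not called, though its KO samples (172, 186 and 175 CPM) were all below its WT samples (230.1, 212 and 242 CPM).

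**Figure D3:**
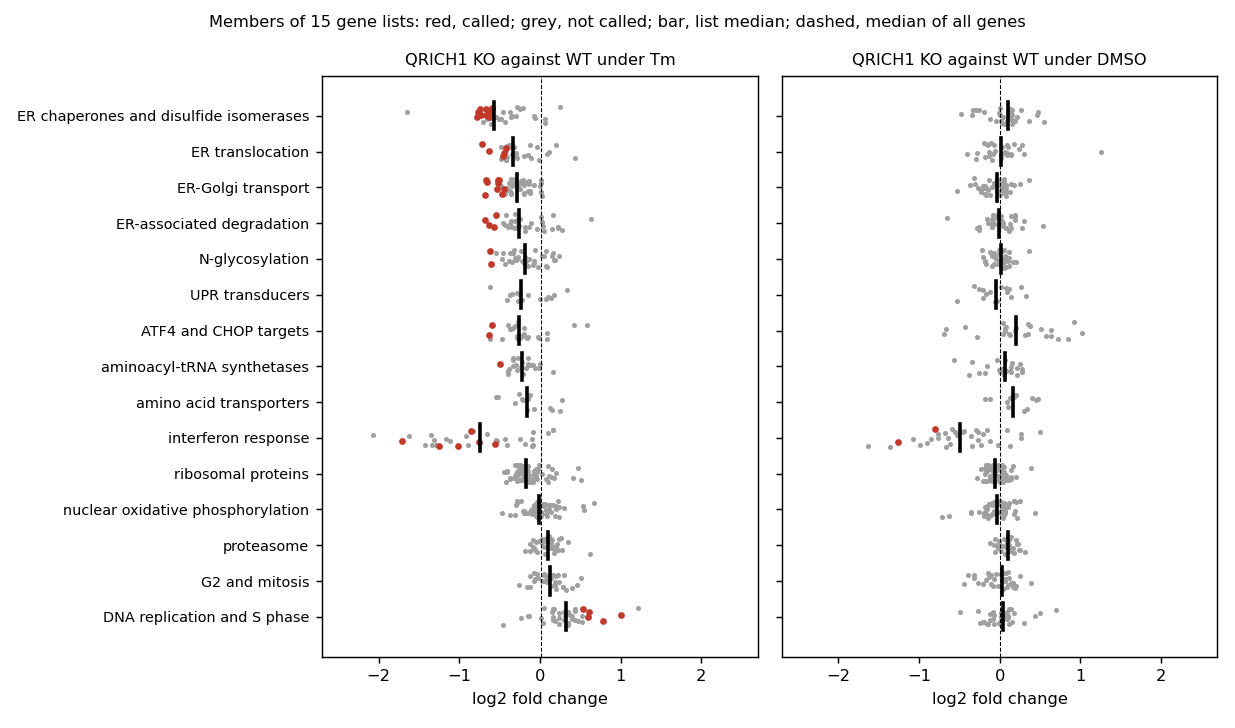
Log2 fold changes (horizontal axes) of QRICH1 KO against WT under Tm (left) and under DMSO (right) for the members of 15 gene lists, each dot 1 gene, red where called, with the list median as a bar and the median of all genes as a dashed line. Under Tm the ER lists lie left of the dashed line (medians -0.57 to -0.19) and DNA replication and S phase lies right of it (0.33), while under DMSO the interferon response alone of the 15 has a median below -0.1.

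On the PERK side, 2 of 25 ATF4 and CHOP targets were lower, none was higher and the median was -0.26, beside 0.20 under DMSO. PCK2, a mitochondrial enzyme of gluconeogenesis, was at 101, 120.5 and 122 CPM in WT and at 74.3, 77.4 and 69.8 CPM in QRICH1 KO (-0.63, SE 0.117, adjusted p = 0.0108). GDF15, a stress-induced cytokine, was at 349, 455 and 349 CPM against 278, 265 and 218 CPM (-0.60, SE 0.129, adjusted p = 0.0263). The genotypes were apart in both, but PCK2 lost its call without KO Tm sample 3 or WT Tm samples 2 or 3, and GDF15 without KO Tm samples 2 or 3, WT Tm sample 2 or KO DMSO sample 2. Without KO samples 3 of both treatments 1 target was called. The best-known members were not called: DDIT3 had 58.3, 75.8 and 70.8 CPM in WT and 65.7, 52.5 and 54.3 CPM in QRICH1 KO (-0.25, adjusted p = 0.494), TRIB3 had -0.40 (adjusted p = 0.267), CHAC1 -0.26 (adjusted p = 0.699) and ATF3 -0.21 (adjusted p = 0.805). ASNS lay between 0.608 and 2.8 CPM in the 6 samples, too near the limit of 3 counts for a comparison.

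Amino acid and translation genes showed few calls. WARS1, the tryptophanyl-tRNA synthetase, was the 1 synthetase of 23 called lower, at 681, 674 and 614 CPM in WT and 487, 485 and 424 CPM in QRICH1 KO (-0.50, SE 0.104, adjusted p = 0.0233), and it lost the call without any 1 of the 3 KO Tm samples and without WT Tm sample 1 or 2. The synthetase list had a median of -0.22, with 22 of 23 members below 0. Of 13 serine and one-carbon genes SHMT2, a mitochondrial enzyme that splits serine, was lower (-0.42, SE 0.097, adjusted p = 0.0438) and the thymidylate synthase gene TYMS was higher. No amino acid transporter of 14 passed (median -0.16). The nearest was SLC3A2, the shared heavy chain of several transporters, with -0.54 (adjusted p = 0.0834). Nor did any of 46 translation factors or 79 ribosomal protein genes pass (medians -0.06 and -0.17).

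Interferon-response genes were the other set with several decreases: 6 of 34 were lower in QRICH1 KO, none was higher, and the median was -0.75. OASL, an antiviral relative of the oligoadenylate synthetases, was at 60, 59.6 and 40 CPM in WT and at 19.7, 17.9 and 11.6 CPM in QRICH1 KO (-1.71, SE 0.351, adjusted p = 0.0208). It was 3.27-fold lower, and its lowest WT sample was still above every KO sample. IFIT1, which binds viral RNA, was at 33.5, 32.8 and 26.8 CPM against 17.9, 16.4 and 11.9 CPM (-1.02, SE 0.202, adjusted p = 0.017). The ubiquitin-like modifier gene ISG15 was at 108, 129.6 and 89.7 CPM against 73.1, 64.6 and 57.2 CPM (-0.75, SE 0.152, adjusted p = 0.0199). Each of these genes kept the genotypes apart. HERC6, a ligase of the same family as the one that attaches ISG15, had -1.25 (SE 0.267, adjusted p = 0.026) and IFI27, a mitochondrial interferon-induced protein, -0.86 (SE 0.188, adjusted p = 0.0283). OAS3, which completes the 6, had -0.56 (SE 0.132, adjusted p = 0.0465).

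Under DMSO the interferon list had a median of -0.49, beside 0.0185 for the 6 ER lists together, and IFI27 and OAS3 were called lower. The count of 6 depended on single samples: edgeR called no member without KO Tm sample 2 or 3, 1 without WT Tm sample 1 or 2, 3 without WT Tm sample 3 and 5 without KO samples 3 of both treatments. By DESeq2 it was 12. Promoters of these genes were searched for the interferon-stimulated response element, written as GAAA, any 2 bases, GAAA, on both strands. It was found in 4 of the 5 called genes with a promoter (80%), against 301 of all 9263 (3.25%). The 5 are members of a list of interferon-response genes, so this excess may come from the list and tells nothing about the call. How often uncalled members of the list hold the element was not counted. Of the 4 genes, 3 are shown with the fixed letters in capitals to let the doubled matches be compared.
ISG15: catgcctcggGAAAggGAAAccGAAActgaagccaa
IFIT1: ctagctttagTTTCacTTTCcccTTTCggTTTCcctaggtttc
IFI27: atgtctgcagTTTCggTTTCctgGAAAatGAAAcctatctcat
These lie at chr1:1013374-1013409 (plus strand, 123 to 88 bases before the start), chr10:89392497-89392539 (plus strand, 126 to 84) and chr14:94110618-94110660 (plus strand, 118 to 76). Over all 301 tested genes with such a match, the median log2 fold change under Tm was 0.0008. Of the 301, 8 were called lower and 2 higher, beside 69 and 32 of all 9263 genes with a promoter. The 8 include the 4 genes of the interferon list.

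In the list of DNA replication and S phase 5 of 38 were higher in QRICH1 KO, none was lower, and the median was 0.33, with 34 of 38 above 0. The list fell under Tm in both genotypes. Against DMSO its median was -0.91 in WT and -0.67 in QRICH1 KO, beside -0.0239 and -0.0039 for all genes tested. In these comparisons 32 members were called lower in WT and 23 in QRICH1 KO, and 1 was called higher in each. The shares of all genes called in them are not given here. Higher thus means a smaller fall for most of the list. MCM4, a subunit of the replicative helicase, was at 224, 236 and 240.2 CPM in WT and at 319, 376 and 369.7 CPM in QRICH1 KO (0.61, SE 0.101, adjusted p = 0.00494). The transcription factor gene E2F1, which drives entry into S phase, was at 6.35, 6.34 and 6.84 CPM against 14.8, 13 and 11.3 CPM (1.0, SE 0.181, adjusted p = 0.00828). In both genes every KO sample was above every WT sample. TYMS, which makes thymidylate, differed by 0.78 (SE 0.167, adjusted p = 0.0265), ORC6 of the origin recognition complex by 0.60 (SE 0.131) and the helicase factor gene GINS2 by 0.53 (SE 0.121). Their DMSO differences were -0.01 for MCM4, 0.50 for E2F1, 0.16 for TYMS, 0.07 for ORC6 and 0.11 for GINS2, none of them called.

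The count of 5 was 1 without KO Tm sample 1 or WT Tm sample 1, 2 without KO Tm sample 2 or WT Tm sample 2, 3 without WT Tm sample 3, KO DMSO sample 2 or WT DMSO sample 2, and 8 without KO samples 3 of both treatments. MCM4 kept its call in each of these fits. Both cell cycle lists together took 0.691, 0.643 and 0.706% of all counts in the WT Tm samples and 0.812, 0.828 and 0.842% in the KO Tm samples. These shares did not overlap. In DMSO the mean share of the lists was 1.215% in WT and 1.221% in QRICH1 KO. Genes of G2 and mitosis had a median of 0.13 and no called member of 36. CKS2, a subunit bound to cyclin-dependent kinases, was among the nearest with 0.39 (adjusted p = 0.178), and CCNB1, the mitotic cyclin, had 0.30 (adjusted p = 0.233).

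Outside these lists the decreases included genes with larger fold changes than the chaperones. SYTL1, an effector of the secretory GTPase RAB27, was at 35.4, 38.4 and 38.2 CPM in WT and at 15.7, 14 and 13.9 CPM in QRICH1 KO (-1.35, SE 0.22, adjusted p = 0.00484). GLRX, which encodes glutaredoxin, was at 60, 61 and 55.5 CPM against 24, 27.2 and 29.5 CPM (-1.13, SE 0.185, adjusted p = 0.00484). NUCB2, a calcium-binding protein of the secretory pathway, was at 177, 174 and 183 CPM against 86.6, 98.6 and 104 CPM (-0.88, SE 0.12, adjusted p = 0.00193). All 3 kept the genotypes apart by more than the spread within either. The actin-binding drebrin gene DBN1 had -1.01 (SE 0.177), the glucose transporter gene SLC2A10 -0.95 (SE 0.179), the collagen-modifying factor gene P3H4 -0.89 (SE 0.191), the keratin gene KRT17 -0.91 (SE 0.167) and PROM1, the membrane protein CD133, -0.90 (SE 0.18). Under DMSO DBN1 had -0.52, SLC2A10 -0.22, P3H4 -0.85, KRT17 -0.16 and PROM1 -0.69, none of them called. KRT17 has near-identical pseudogenes, and how reads that map to several places were counted is not given in the sources used here, so its values are uncertain. SYTL1, GLRX, NUCB2 and DBN1 kept their calls in each fit without 1 sample, while SLC2A10 lost it without KO Tm sample 2 or 3, KRT17 also without WT Tm sample 2, PROM1 without KO Tm sample 1 or 2 or WT Tm sample 1, and P3H4 without any of 5 of the 6 Tm samples.

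Among genes of secretory epithelium AGR2 was lower, as given above, and so was SPDEF, a transcription factor of goblet cells, at 28.5, 34.7 and 24.5 CPM in WT and 19.8, 17.1 and 16.9 CPM in QRICH1 KO (-0.71, SE 0.154, adjusted p = 0.0271). They were the 2 called of 14 tested, and none was higher. Under DMSO SPDEF differed by -0.67, with the genotypes apart, and AGR2 by -0.01, and neither was called. SPDEF lost its call without any 1 of the KO Tm samples and without WT Tm sample 1 or 2, and the count of 2 was 1 without KO samples 3 of both treatments. No gene of 9 in the absorptive list passed, the nearest being the keratin gene KRT20 with 0.46 (adjusted p = 0.172). Markers of colon epithelium summed to 58571 to 75615 CPM in the WT Tm samples and 63177 to 79856 CPM in the KO Tm samples, with none of 10 called. The markers of other cell types summed to 1835 to 1928 CPM in WT and 2089 to 2359 CPM in QRICH1 KO, nearly all of it LYZ, with 7 of 26 at 0 counts in every Tm sample. Whether these shifts had a part in the differences above was not tested.

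Among the increases, COTL1, which encodes an actin-binding protein, had the largest fold change of genes at 10 CPM or more. It was at 61.3, 97.4 and 242 CPM in the WT Tm samples and at 788, 745 and 432 CPM in the KO Tm samples. The groups did not overlap, but the samples within each spread widely (2.31, SE 0.53, adjusted p = 0.0412). In DMSO it was at 94.3, 186 and 389.9 CPM in WT and at 1285, 1304 and 335 CPM in QRICH1 KO, where KO sample 3 fell within the WT range. COTL1 lost its call without KO Tm sample 1 or 2, WT Tm sample 1 or 2, or sample 2 of either DMSO group.

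SERPINE2, a secreted inhibitor of serine proteases, had the smallest p under Tm. It was at 23.7, 27.8 and 29.6 CPM in WT and at 66, 59.8 and 55.5 CPM in QRICH1 KO (1.17, SE 0.123, adjusted p = 0.000271). HPGD, which inactivates prostaglandins, was at 23.7, 17.9 and 21 CPM against 48.6, 57 and 42.4 CPM (1.24, SE 0.153, adjusted p = 0.000849). CLDN2, a tight junction protein that forms a cation pore, was at 8.17, 10.6 and 8.21 CPM against 18.4, 25.5 and 17.3 CPM (1.16, SE 0.172, adjusted p = 0.00348). In each the lowest KO sample exceeded the highest WT sample. CLDN2 was the 1 tight junction and adhesion gene of 25 to pass. The stem cell gene LGR5, the 1 WNT target of 14 to pass, was at 4.29, 5.85 and 5.93 CPM against 9.92, 9.72 and 13.3 CPM (1.05, SE 0.195, adjusted p = 0.0105). TNS4, a focal adhesion protein, was at 117, 128 and 118 CPM against 213, 224 and 201 CPM (0.81, SE 0.115, adjusted p = 0.00252), with tight samples in both genotypes. LGR5 lost its call without KO Tm sample 3 or WT Tm sample 1, and the other 4 kept theirs.

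**Figure D4:**
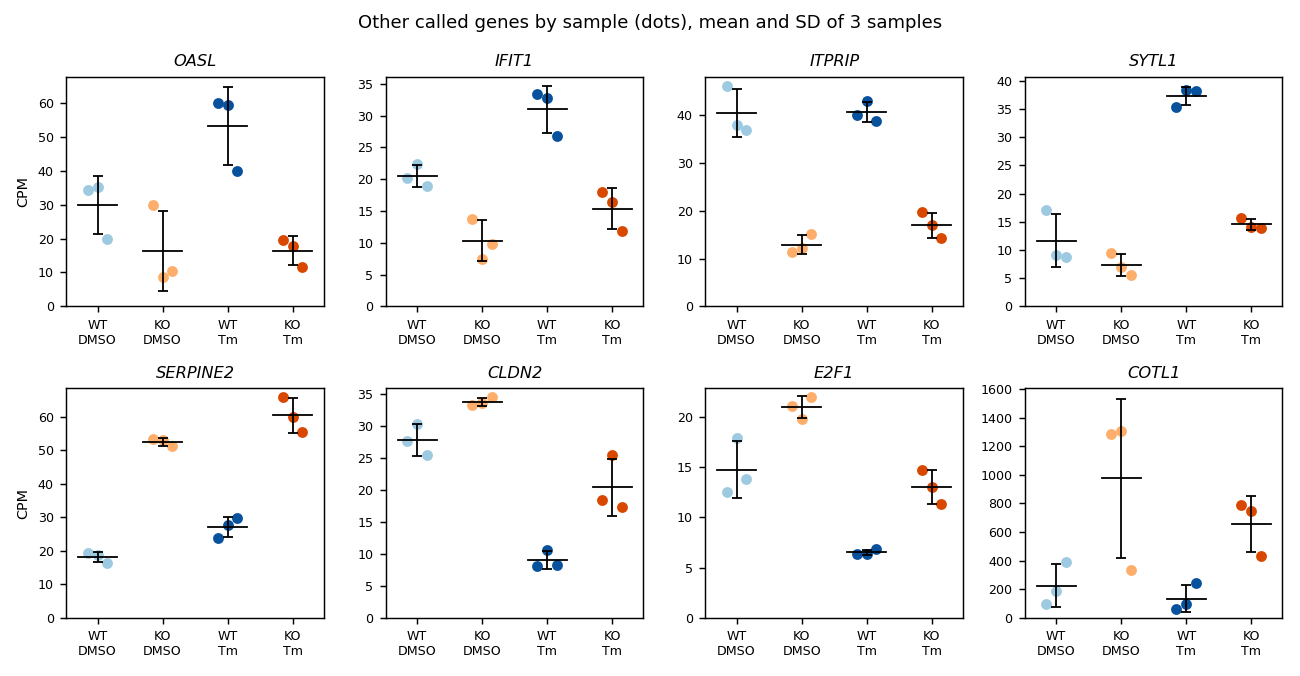
Levels in CPM (vertical axes, from 0) of 8 further genes called under Tm in the 4 groups of 3 samples, each dot 1 sample, with the mean (long bar) and SD (error bar). IFIT1, ITPRIP, SERPINE2, CLDN2 and E2F1 separate the genotypes in both treatments, while OASL, SYTL1 and COTL1 do so in Tm but not in DMSO. COTL1 shows KO DMSO sample 3 at 334.6 CPM, far below the other 2 KO DMSO samples.

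Other increases were of varied function. PADI1, which converts arginine to citrulline in proteins, differed by 0.94 (SE 0.134, adjusted p = 0.00252). The secreted glutathione peroxidase gene GPX3 had 0.85 (SE 0.203), the BMP antagonist gene SOSTDC1 0.82 (SE 0.172), the collagen galactosyltransferase gene COLGALT1 1.21 (SE 0.261) and ICMT, which methylates prenylated proteins, 0.73 (SE 0.164). GLUL, the glutamine synthetase gene, was at 42.5, 44.7 and 51.1 CPM in WT and at 77.9, 77.4 and 65.8 CPM in QRICH1 KO (0.68, SE 0.11, adjusted p = 0.00484). PERP, a desmosomal membrane protein, had 0.45 (SE 0.106, adjusted p = 0.0445) and EPHB6, an ephrin receptor without kinase activity, 0.56 (SE 0.117, adjusted p = 0.0246). Their DMSO differences were 0.31 for PERP and 0.49 for EPHB6, neither of them called. The GLUL samples were apart, and under DMSO the GLUL difference was -0.01, with means of 117.8 CPM in WT and 117.4 CPM in QRICH1 KO. APOBEC3C (1.24, SE 0.191), TUBA1A (0.98, SE 0.16) and ATP5MF (0.93, SE 0.218) share sequence with close paralogs or pseudogenes, or overlap other genes, and are uncertain for that reason. In cholesterol synthesis ACAT2, which joins 2 acetyl-CoA molecules, was higher (0.63, SE 0.135, adjusted p = 0.0253) and the kinase gene PMVK lower (-0.70, SE 0.166, adjusted p = 0.0469), of 27 tested.

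Lists without any called member numbered 20 of 36. Besides those above they cover apoptosis (29 genes tested, median 0.04), autophagy (27, -0.14), p53 targets (20, 0.1), NF-kB targets (19, 0.03), NRF2 targets (24, 0.04), cytosolic heat shock proteins (24, 0.13), the proteasome (36, 0.1), ribosome biogenesis (40, -0.06), nuclear oxidative phosphorylation (57, -0.01), mitochondrially encoded genes (13, 0.14), glycolysis and hypoxia (33, 0.09) and immediate early genes (23, -0.01). The nearest in the autophagy list was WIPI1, which binds phosphoinositides on forming autophagosomes, at 58.6, 66.5 and 56.7 CPM in WT and 39.7, 41 and 39.3 CPM in QRICH1 KO (-0.60, SE 0.149, adjusted p = 0.0594). HSPA8, the constitutive cytosolic HSP70, had 6159.5, 7058 and 6277 CPM against 8258, 9106 and 8390.4 CPM (0.40, SE 0.113, adjusted p = 0.102). These genes separated the samples of the genotypes without passing the test across genes. The glycolytic enzyme gene PGAM1 had 0.41 (adjusted p = 0.0571), and FTH1, the ferritin heavy chain, 0.77 (adjusted p = 0.0848).

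The same genotype comparison in DMSO shares no sample with the one under Tm and shows which differences were already there without stress. Both come from the same fit with a shared estimate of the spread. The labels do not say whether the KO cells of the treatments were made separately, so genes called in both are not independent support. Under DMSO 2 genes were higher in QRICH1 KO (0.0177% of the 11323 tested) and 9 lower (0.0795%). Of these 11, 10 were also called under Tm, all in the same direction: SERPINE2 and PADI1 higher, and ITPRIP, PGM1, ETHE1, LAMB2, OAS3, IFI27, AXL and CCDC106 lower. The 11th, INPPL1, had -1.07 under Tm (adjusted p = 0.151). The DMSO counts were 26 higher and 13 lower without KO DMSO sample 3, 3 lower without WT DMSO sample 2, and 40 higher and 19 lower without KO samples 3 of both treatments.

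ITPRIP, which encodes a protein that interacts with inositol trisphosphate receptors of the ER membrane, was at 46.3, 38.1 and 37.1 CPM in WT and at 11.5, 12.1 and 15.1 CPM in QRICH1 KO under DMSO (-1.64, SE 0.152, adjusted p = 1.85e-05). Under Tm it was at 40.1, 43 and 38.9 CPM and 19.7, 17 and 14.4 CPM (-1.26, SE 0.153, adjusted p = 0.000849). The genotypes were apart in both treatments. SERPINE2 was at 19.3, 18.6 and 16.4 CPM in WT and at 53.3, 53.1 and 51.2 CPM in QRICH1 KO under DMSO (1.54, SE 0.125, adjusted p = 4.42e-06). PGM1, phosphoglucomutase, differed by -0.94 under DMSO and -1.03 under Tm, and ETHE1, a mitochondrial sulfur dioxygenase, by -1.14 and -1.02. AXL, a receptor tyrosine kinase, had -0.86 and -0.78. CCDC106 was low in all samples, at 3.3, 2.68 and 2.58 CPM in WT and 0.635, 0.351 and 0.557 CPM in QRICH1 KO under Tm. It was called lower (adjusted p = 0.00499), but the lowest KO value equals the limit of 3 counts in that sample, so no fold is given.

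Among the genes called in both treatments LAMB2 is a neighbour of the targeted gene. It encodes the laminin beta 2 chain and lies at chr3:49121114-49133118, 26.8 kb from QRICH1. Its level was 13.1, 8.05 and 10.8 CPM in WT and 3.09, 1.76 and 4.61 CPM in QRICH1 KO under Tm (-1.71, SE 0.289, adjusted p = 0.00519), and 15.2, 15.1 and 10.3 CPM and 4.75, 4.09 and 5.07 CPM under DMSO (-1.54, SE 0.268, adjusted p = 0.0252). No sample of one genotype overlapped the other. None of the 15 other neighbours tested was called, among them IMPDH2, 0.3 kb away (-0.11), and QARS1, 1.6 kb away (0.16). Their log2 fold changes under Tm ran from -0.11 to 1.74. The highest was C3orf62, 174.2 kb away (adjusted p = 0.349), and USP19, 13.7 kb away, had 0.43. Whether the guide or its cut acted on LAMB2 directly was not tested.

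Over all genes called under Tm, the increases had a median under DMSO further from 0 than the decreases. The 46 higher genes had a median of 0.75 under Tm and 0.28 under DMSO, and 39 had the same sign in both. Under Tm against DMSO in WT cells 37 of the 46 were called lower and 1 higher. Of the 86 lower genes 64 were called higher and 5 lower in that comparison. The WT Tm samples are part of both comparisons, which favours opposite directions in the 2, so these counts are not separate evidence. The share of all genes called in WT cells under Tm against DMSO is not given here. The median log2 fold change of all genes in it was -0.0239. The 86 lower genes had a median of -0.66 under Tm and -0.17 under DMSO. Of the 86, 60 had the same sign under DMSO. Within 1.2-fold of equality under DMSO lay 50 of the 86 lower genes and 21 of the 46 higher ones. In 26 of the 86 and 18 of the 46 the DMSO log2 fold change had the same sign and at least 50% of the Tm value. The 6 ER lists had a median of 0.0185 under DMSO with no called member. Across all 11323 genes the log2 fold changes in the 2 treatments correlated with Pearson's r = 0.245 and Spearman's rho = 0.214. This is a description, since genes are not independent replicates.

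**Figure D5:**
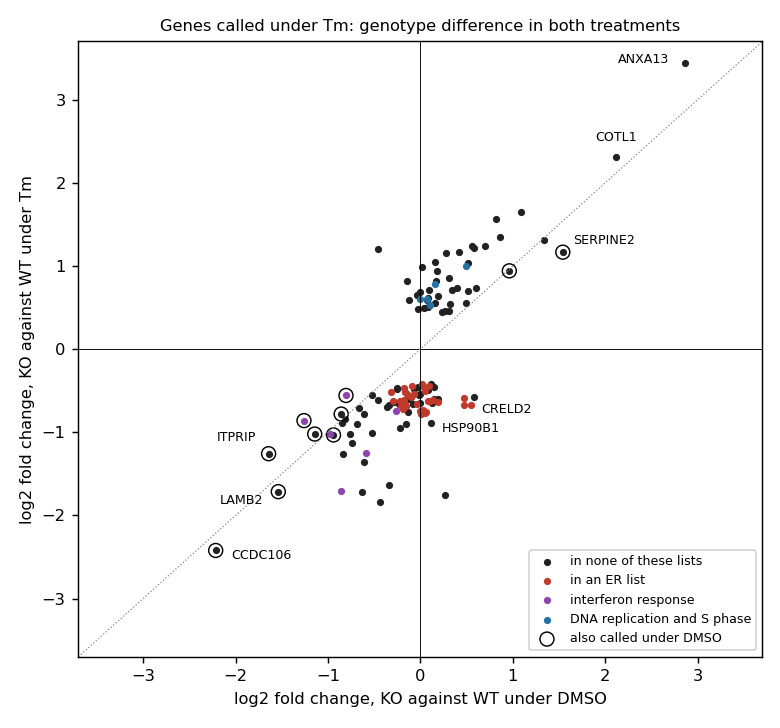
Log2 fold change of QRICH1 KO against WT under DMSO (horizontal axis) and under Tm (vertical axis) for the 132 genes called under Tm, each dot 1 gene coloured by list, with rings on the 10 also called under DMSO and a dotted line where both are equal. ER genes in red lie below 0 on the vertical axis and around 0 on the horizontal axis, whereas ringed genes lie near the dotted line.

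Whether the genotype difference itself changed with Tm was tested by the interaction, the difference under Tm less the difference under DMSO. It shares its samples with both comparisons above, so its values are given beside theirs and are not separate evidence. No gene was called by edgeR. The smallest adjusted p was 0.0722, 12 genes were under 0.1 and 774 were at an unadjusted p under 0.05, while DESeq2 called 7 higher and 28 lower. Without WT DMSO sample 3 edgeR called 4 lower, and with library totals alone 5 lower. HSP90B1 had -0.77 under Tm, 0.05 under DMSO and an interaction of -0.82 (SE 0.146, adjusted p = 0.0722). CRELD2 had -0.67, 0.48 and -1.15 (SE 0.191, adjusted p = 0.0722). The selenoprotein genes SELENOS and SELENOK had interactions of -0.82 and -1.16 (adjusted p = 0.0722 for both), and SESN2, a stress-induced regulator of mTORC1, -1.09 (adjusted p = 0.0722). On the positive side the nearest were AFAP1L2, an adaptor of the SRC kinase, with 1.67 (adjusted p = 0.0986), and the pantothenate kinase gene PANK3 with 0.92 (adjusted p = 0.127). GLUL had 0.69 (adjusted p = 0.192) and TUBA1A 0.97 (adjusted p = 0.206). SEC31B, also among the 5 smallest p on this side, stayed at or below 1.76 CPM in every Tm sample.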

How the data were processed

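RNA was sequenced from 12 HT29-Cas9 samples, 3 in each of 4 groups, on a modified Smart-seq2 protocol with Nextera XT libraries, per the labels' protocols, which mark neither strand nor single molecules. The authors deposited 1 table of raw counts per gene, 20015 genes by 12 samples. Trimmomatic, STAR, DESeq2 and the hg38 build are named in the submitters' processing notes, while the counting tool, strand setting and handling of multiply mapped reads are not stated in these sources. Total counts were 6856736 to 17861844 per sample. Groups came from the sample titles, and whether samples came from separate transductions is not stated, so p-values measure the spread between these samples.

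Counts were tested with edgeR 4.0.16 in R 4.3.3 (limma 3.58.1): filterByExpr (minimum count 10) chose the genes, TMM scaling, and a quasi-likelihood fit of 4 group means to all 12 samples, with Benjamini-Hochberg adjustment over 11323 genes and calls at 0.05. The common biological coefficient of variation was 0.155. The SE is the log2 fold change divided by the square root of F. Replicates of a group differed by more than sampling noise (chi-square per degree of freedom 8.64 to 35.8). The fit was tested on simulated data. Tables were made with Python 3.11.15, pandas 2.3.3 and numpy 2.4.6, and figures with matplotlib 3.10.9. Symbols were matched for 19875 genes. Alternatives were DESeq2 1.42.0, other scalings and filters, a replicate block, a test against 1.2-fold and leaving out samples.

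Genes were named by a rule: QRICH1, a panel of 12 stress genes, the 15 largest changes per direction at 10 CPM or more, up to 5 called members of each list per direction by smallest p (the 2 with the smallest p where none was called), the 5 called genes per direction with the highest level and the 5 per direction with the smallest interaction p. HYOU1, MANF, OAS3, KDELR2, KDELR3, CCDC106, AXL, INPPL1, APOBEC3G, IMPDH2, QARS1, genes named for a promoter match and those listed only for keeping their call were chosen after their values were seen. The comparison and the gene lists were chosen with earlier results of these data known. Uncalled genes that the rule names are given in part, and a called gene that it names is not reported here.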

Additional observations from a re-analysis of the deposited data

Results flagged for a closer look

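In 7 of the 132 genes called under Tm, every QRICH1 KO sample lay on one side of the WT samples under Tm and on the other side under DMSO. Among all 11323 genes tested there were 72 of this kind. The 2 counts are not alike, since all 132 called genes had the genotypes apart under Tm. Over all genes tested the KO Tm samples lay above the WT Tm samples in 9.41% and below in 9.06%. The interaction, the log2 fold change of KO over WT under Tm less that under DMSO, was -1.22 for MANF (edgeR adjusted p = 0.127), -1.16 for SELENOK (0.0722), -1.15 for CRELD2 (0.0722), -1.06 for SDF2L1 (0.0875) and -0.82 for SELENOS (0.0722). It was 0.71 for NUP205, a nuclear pore protein (0.266), and 1.67 for AFAP1L2 (0.0986). None passed an adjusted p of 0.05 in that test, so for these genes a difference between the treatments was not established. MANF, CRELD2, SDF2L1 and SELENOS, of the ER lists, were lower in the KO Tm samples and above WT in the KO DMSO samples. SELENOK, which is in none of the lists, had the same pattern.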

How the results depend on the processing

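For the Tm comparison (46 higher, 86 lower) DESeq2 called 90 higher and 199 lower, no count filter gave 126 and 153, library totals only gave 66 and 57, and a test against 1.2-fold gave 10 and 14. Leaving out 1 sample gave 13 to 59 higher and 35 to 102 lower. For DMSO (2 higher, 9 lower) DESeq2 called 23 and 35, no count filter gave 76 and 62, leaving out both KO samples 3 gave 40 and 19, a fit of the 2 groups only called 4 lower, and leaving out 1 sample gave 2 to 26 higher and 3 to 13 lower. For the interaction (0 in each direction) DESeq2 called 7 and 28, no count filter gave 12 and 32, library totals only called 5 lower, and leaving out 1 sample gave 0 higher and 0 to 4 lower. The cause of these shifts was not tested. With a replicate block the calls were 58 higher and 103 lower under Tm, and 4 higher and 13 lower under DMSO. Same-numbered KO and WT samples did not deviate together under Tm (r = -0.158, 0.012 and 0.054), so the numbers were not taken as pairs. Under DMSO r was 0.11, -0.005 and 0.122. Same-numbered KO samples of the 2 treatments had r = 0.213, 0.002 and 0.265, and differently numbered ones -0.239 to 0.036. The numbers may thus carry shared structure among the KO samples, and its source was not tested. For WT samples of the 2 treatments r was -0.139, -0.051 and 0.019. Among named genes and lists 337 alternative values lost the threshold, 50 gained it, 201 moved and 1 reversed: ASNS, not called, was at -0.25 without WT Tm sample 3, within a range of -0.25 to 0.60 when 1 sample was left out. The WT Tm sample 3 had 6856736 counts, so genes under 0.456 CPM there were within the limit of 3 counts.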
